A study of Homo sapiens with 2 samples.

Results

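The 45 genes described here carry out DNA replication in S phase, and they were chosen by name from the 60725 genes of the deposited table: 11 that license origins, 6 that fire them, 13 of the replication fork, 4 that supply nucleotides, 4 that copy chromatin and 7 of the S phase checkpoint and DNA repair. Their RNA was measured in 2 libraries of KYSE30-Luc-GFP, an esophageal squamous cell carcinoma line that carries luciferase and GFP. The cells were stained with an antibody to CD44, a hyaluronan receptor, and flow sorted from culture into a CD44 high fraction (labelled CD44 Positive) and a CD44 low fraction (labelled CD44 Negative), taken from the ends of the staining range. Each fraction gave 1 library of poly(A) RNA, both come from 1 cell line, and no other treatment is given. The study used the comparison to ask how cells rich in its metastasis-initiating signature differ from CD44 low cells.

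A cell prepares its origins in G1, when the origin recognition complex, CDC6 and CDT1 load the MCM helicase onto DNA. In S phase CDC45 and the GINS complex join the helicase and activate it, polymerases copy both strands behind a sliding clamp, and ribonucleotide reductase and thymidylate synthase supply deoxynucleotides. Many of these genes are transcribed at the G1/S transition under E2F factors, whereas many mitotic genes are transcribed later, in G2, through a promoter element called the CHR.

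In total, 21633236 expected counts were recovered for CD44 high cells and 22859583 for CD44 low cells, an expected count being a read pair that RSEM assigned to a gene. Of these, 7.50% in CD44 high cells and 14.0% in CD44 low cells fell on genes of the mitochondrial genome. CD44 itself had 22819 expected counts in CD44 high cells, against 9727 in CD44 low cells, a ratio of 2.35-fold (95% counting interval 2.29 to 2.41), in the direction of the sort. Of the 6 squamous and epithelial markers, EPCAM was higher in CD44 high cells, KRT6A, KRT14, TP63 and CDH1 were lower, and KRT5 had 0 counts in CD44 high cells and 8 in CD44 low cells. Of 11 markers of fibroblasts, endothelium, blood and liver, COL1A1 alone was measured, at 175 counts in CD44 high cells and 292 in CD44 low cells. The list summed to 191 counts in CD44 high cells and 302 in CD44 low cells, with CD3E, COL1A2 and HBB among those at 0 in both.

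A ratio is the scaled expected count in CD44 high cells over that in CD44 low cells. Genes that reached 50 expected counts in 1 of the libraries count as measured, and a measured gene was called when its ratio reached 1.2-fold and its counting interval left out equality. With 1 library per fraction no test was possible and the spread between cultures is not known. Ranges in parentheses beside a gene are the 95% counting intervals of its ratio, which cover counting error only.

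All 45 replication genes were measured, with between 353 and 9639 expected counts, and 23 of them (51.1%) were called higher in CD44 high cells, against 20.2% of the 12371 measured genes. None was called lower, against 21.7% of the measured genes. The median ratio of the members was 1.203-fold, or 0.27 on the log2 scale, and that of all measured genes was 0.01 on the log2 scale. The differences were small. No member reached 2-fold, a size that 1.24% of the measured genes reached upward and 4.2% downward, and RRM2 and CDC45 alone reached 1.5-fold, which 4.93% of the measured genes reached upward and 10.4% downward. The counting interval lay above equality for 35 of the members, against 32.4% of the measured genes, and below equality for 0, against 31% of the measured genes. For the other 10 members it spanned equality. In RNA from sorted cells, a larger share of cells in S phase and more RNA per cell cannot be told apart.

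**Figure D1:**
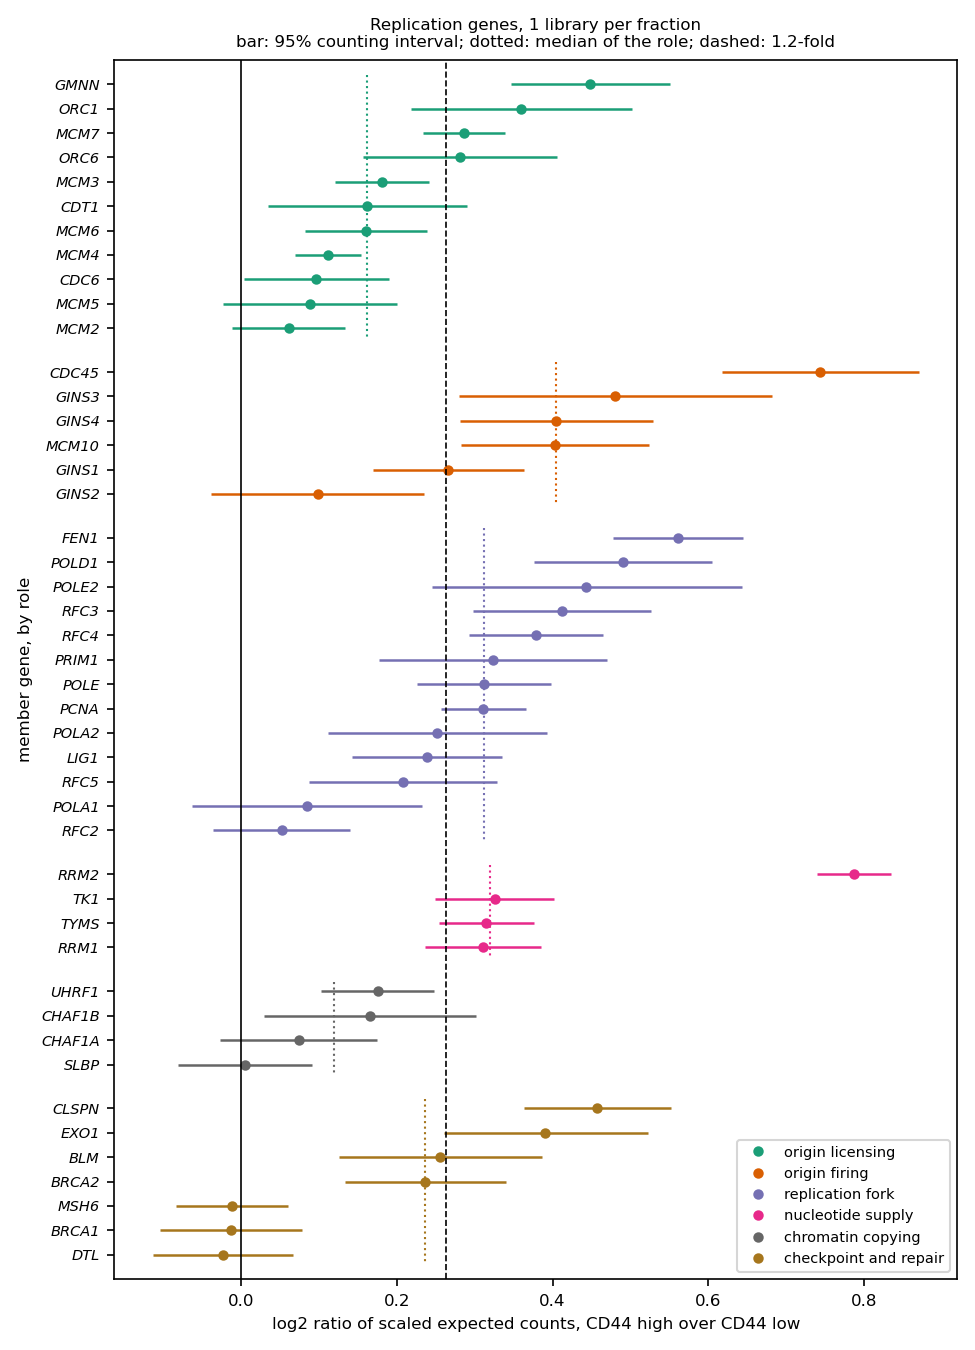
The log2 ratio of scaled expected counts, CD44 high over CD44 low, is plotted for each of the 45 members, by role, with its 95% counting interval as a bar, the median of each role as a dotted line and 1.2-fold as a dashed line. RRM2 (0.79) and CDC45 (0.74) stand to the right of the other members, and MSH6, BRCA1 and DTL lie just below 0, though above 0 under TMM factors.

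Together the members took 0.503% of all expected counts in CD44 high cells (exact binomial interval 0.5002% to 0.5062%) and 0.395% in CD44 low cells (0.392% to 0.397%). Without the mitochondrially encoded genes in the denominator the shares were 0.544% in CD44 high cells and 0.459% in CD44 low cells. The gap between the fractions was thus smaller once the mitochondrial share was taken out. Scaled to the total without these genes, 20 members were called higher, and scaled to all counts 28 were, with 0 called lower either way. The median of all measured genes moved as well, from 0.01 on the log2 scale to -0.02 and 0.09 in that order. The shares of all measured genes called under these scalings are not given here.

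Promoter windows of 5 members are printed as examples, the 2 genes with the largest ratios and members that hold E2F words. Over the 42 members with a window, neither motif went with a higher median ratio. Windows reach from 250 bases before to 50 bases after a start site (RefSeq, GRCh38.p14), 5′ to 3′ on the strand of the gene, and capitals mark matches on either strand to an E2F word (TTTCGCGC, TTTGGCGC, TTTCCCGC or TTTGCCGC) or to CCAAT, the box bound by NF-Y. RRM2 at chr2:10122489-10122788 on the plus strand and CDC45 at chr22:19479576-19479875 on the plus strand had the 2 largest ratios and hold CCAAT boxes without an E2F word. MCM7 at chr7:100101348-100101647 and CLSPN at chr1:35769929-35770228, both on the minus strand, hold both kinds. The start site of the MCM7 window lies 543 bases from the 5′ end of its transcript with the most counts, which the window does not cover. MCM2 at chr3:127598161-127598460 on the plus strand, whose ratio was near 1, holds E2F words alone.
RRM2: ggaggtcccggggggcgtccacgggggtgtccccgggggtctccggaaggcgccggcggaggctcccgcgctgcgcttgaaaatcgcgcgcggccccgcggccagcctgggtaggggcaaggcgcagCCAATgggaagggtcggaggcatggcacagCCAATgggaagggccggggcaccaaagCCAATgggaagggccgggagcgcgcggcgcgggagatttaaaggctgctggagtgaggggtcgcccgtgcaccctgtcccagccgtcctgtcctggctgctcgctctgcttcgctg
CDC45: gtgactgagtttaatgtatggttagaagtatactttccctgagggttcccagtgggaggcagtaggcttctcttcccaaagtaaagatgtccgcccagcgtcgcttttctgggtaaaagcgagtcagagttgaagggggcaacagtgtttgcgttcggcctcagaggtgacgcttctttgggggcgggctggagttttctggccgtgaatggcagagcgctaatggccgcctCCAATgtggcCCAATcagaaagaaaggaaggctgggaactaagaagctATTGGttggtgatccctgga
MCM7: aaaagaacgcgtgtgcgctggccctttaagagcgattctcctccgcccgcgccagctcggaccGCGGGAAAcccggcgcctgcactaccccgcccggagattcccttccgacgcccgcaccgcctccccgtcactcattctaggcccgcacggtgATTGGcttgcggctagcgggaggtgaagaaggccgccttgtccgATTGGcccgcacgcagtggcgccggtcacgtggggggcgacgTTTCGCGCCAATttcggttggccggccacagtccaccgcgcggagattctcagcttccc
CLSPN: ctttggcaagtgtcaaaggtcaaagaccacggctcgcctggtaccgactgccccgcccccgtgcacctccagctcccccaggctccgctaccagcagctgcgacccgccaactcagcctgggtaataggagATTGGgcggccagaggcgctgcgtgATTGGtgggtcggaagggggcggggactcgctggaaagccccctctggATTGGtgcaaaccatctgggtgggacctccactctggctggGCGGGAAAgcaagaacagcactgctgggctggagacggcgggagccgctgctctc
MCM2: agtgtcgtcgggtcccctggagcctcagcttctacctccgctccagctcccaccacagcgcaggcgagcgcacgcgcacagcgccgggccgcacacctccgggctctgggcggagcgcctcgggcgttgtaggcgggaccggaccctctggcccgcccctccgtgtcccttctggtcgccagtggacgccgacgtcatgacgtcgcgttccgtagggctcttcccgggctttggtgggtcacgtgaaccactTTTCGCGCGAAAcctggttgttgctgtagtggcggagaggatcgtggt

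The CCAAT boxes of RRM2 begin 123, 93 and 66 bases before the start site. In MCM7 the first base of a CCAAT box is the last base of an E2F word. In MCM2 an E2F word and the reverse complement of the same word overlap just past the start site of its window. That site lies 188 bases from the 5′ end of the MCM2 transcript with the most counts. A match is a description of the sequence, and binding was not measured.

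Among the 11 licensing genes 4 were called higher (36.4%, against 20.2% of all measured genes), and their median was 0.16 on the log2 scale. MCM4, a subunit of the ring-shaped helicase, had 9156 expected counts in CD44 high cells, against 8484 in CD44 low cells, a ratio of 1.08-fold (1.05 to 1.11). It was the most abundant helicase subunit, and its difference was one of the smallest whose interval left out equality. MCM7 (chromosome 7, 100092728 to 100101940, minus strand) had 6483 counts in CD44 high cells, against 5323 in CD44 low cells, and at 1.22-fold (1.18 to 1.26) was the only one of the 6 helicase subunits called. MCM3 had 4764 counts in CD44 high cells and 4206 in CD44 low cells (1.13-fold). MCM6 had 2793 counts in CD44 high cells and 2502 in CD44 low cells (1.12-fold). Both intervals left out equality, but the ratios were below the fold of a call. MCM5 had 1348 counts in CD44 high cells and 1269 in CD44 low cells (0.984 to 1.15). MCM2 had 3104 counts in CD44 high cells and 2979 in CD44 low cells (0.992 to 1.097). The intervals of MCM5 and MCM2 spanned equality. The 6 subunits, which act in equal numbers in 1 ring, had a median of 0.14 on the log2 scale.

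The other 5 licensing genes, ORC1, ORC6, CDC6, CDT1 and GMNN, had a median of 0.28 on the log2 scale, with GMNN, ORC1 and ORC6 called higher. GMNN encodes geminin, which binds CDT1 and blocks a further round of licensing within the same S phase. It had 1845 expected counts in CD44 high cells, against 1354 in CD44 low cells, a ratio of 1.36-fold (1.27 to 1.46). CDT1, the loader that geminin holds back, had 1054 counts in CD44 high cells and 943 in CD44 low cells, and its 1.12-fold ratio was not called. By expected counts GMNN stood at 1.75 times CDT1 in CD44 high cells and 1.44 times in CD44 low cells. TPM is a level that RSEM corrects for transcript length and scales to the same sum in each library. The level of GMNN over that of CDT1 in TPM was 4.57 in CD44 high cells and 3.40 in CD44 low cells. ORC1, the cell cycle regulated subunit of the origin recognition complex, had 932 counts in CD44 high cells, against 727 in CD44 low cells (1.28-fold, 1.16 to 1.42). ORC6, its smallest subunit, had 1159 counts in CD44 high cells and 955 in CD44 low cells (1.21-fold, 1.11 to 1.32). Both subunits were called higher. CDC6, which joins the complex in G1, was close to equality, with 1928 counts in CD44 high cells and 1805 in CD44 low cells and an interval of 1.002 to 1.14. Scaled to the total without mitochondrially encoded genes, 2 of the 11 licensing genes were called instead of 4. The share of all measured genes called under that scaling is not given here.

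Firing factors had a median of 0.40 on the log2 scale, with 5 of 6 called higher (83.3%, against 20.2% of all measured genes). Their median was the highest of the 6 roles by scaled counts. On the log2(TPM + 1) scale their median of 0.51 was below the 0.60 of nucleotide supply. CDC45 (chromosome 22, 19479459 to 19520612, plus strand), which joins MCM and GINS to form the active helicase, had 1375 expected counts in CD44 high cells, against 822 in CD44 low cells. Its ratio of 1.67-fold (1.53 to 1.83) was the second largest of the members, and the interval stayed above 1.5-fold. MCM10, which helps to activate the assembled helicase, had 1300 counts in CD44 high cells and 984 in CD44 low cells (1.32-fold). The 4 GINS subunits form 1 small complex but did not share a ratio. GINS3 had 492 counts in CD44 high cells, against 353 in CD44 low cells (1.39-fold, 1.21 to 1.604). GINS4 had 1242 counts in CD44 high cells, against 939 in CD44 low cells (1.32-fold). GINS1 stood just above the threshold, with 1916 counts in CD44 high cells and 1595 in CD44 low cells (1.203-fold). GINS2, at 909 counts in CD44 high cells and 850 in CD44 low cells, spanned equality (0.974 to 1.18). Intervals of GINS2 and GINS4 did not overlap.

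Of the 13 fork genes, 8 were called higher (61.5%, against 20.2% of all measured genes) and the median was 0.31 on the log2 scale. PCNA (chromosome 20, 5114953 to 5126626, minus strand), the sliding clamp that tethers polymerases to DNA, had 5984 expected counts in CD44 high cells, against 4828 in CD44 low cells, a ratio of 1.24-fold (1.19 to 1.29). It sat at the median of its role. FEN1, the nuclease that trims flaps from Okazaki fragments, had the largest fork ratio, with 2872 counts in CD44 high cells and 1949 in CD44 low cells (1.48-fold, 1.39 to 1.56). LIG1, which seals the fragments that FEN1 has trimmed, had 1925 counts in CD44 high cells and 1633 in CD44 low cells, and its ratio of 1.18-fold (1.104 to 1.26) fell just short of a call. The intervals of FEN1 and LIG1 did not overlap.

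The catalytic subunits of the lagging and leading strand polymerases were both called. POLD1, of polymerase delta, had 1503 expected counts in CD44 high cells, against 1071 in CD44 low cells (1.405-fold, 1.298 to 1.52). POLE, of polymerase epsilon, had 2458 counts in CD44 high cells, against 1983 in CD44 low cells (1.24-fold). POLE2, the second subunit of epsilon, had 493 counts in CD44 high cells and 363 in CD44 low cells (1.36-fold, 1.18 to 1.56), a wide interval on few counts. Polymerase alpha, which starts each fragment on an RNA primer, was split. PRIM1, the catalytic primase, was called at 1.25-fold, with 860 counts in CD44 high cells and 688 in CD44 low cells. POLA2, the accessory subunit of alpha, had 904 counts in CD44 high cells and 760 in CD44 low cells, just under the threshold at 1.19-fold. POLA1, the catalytic subunit, had 773 counts in CD44 high cells and 730 in CD44 low cells, and its interval spanned equality (0.957 to 1.17).

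Replication factor C loads the clamp, and its small subunits also differed among themselves. RFC3 had 1458 expected counts in CD44 high cells, against 1097 in CD44 low cells (1.33-fold, 1.23 to 1.44). RFC4 had 2536 counts in CD44 high cells, against 1953 in CD44 low cells (1.300-fold). Both were called higher, whereas RFC5 at 1203 counts in CD44 high cells and 1043 in CD44 low cells (1.15-fold) was not. RFC2 had 2128 counts in CD44 high cells and 2055 in CD44 low cells, an interval of 0.975 to 1.102 that spanned equality and lay below that of RFC3 and RFC4.

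All 4 genes of nucleotide supply were called higher, against 20.2% of all measured genes, with a median of 0.32 on the log2 scale. RRM2 (chromosome 2, 10122328 to 10131419, plus strand) encodes the small subunit of ribonucleotide reductase, whose supply limits the enzyme in S phase. It had 9639 expected counts in CD44 high cells, against 5593 in CD44 low cells, and its ratio of 1.73-fold (1.67 to 1.78) was the largest of the 45. RRM1, the large subunit of the same enzyme, had 3259 counts in CD44 high cells and 2631 in CD44 low cells (1.24-fold, 1.18 to 1.31). The level of RRM2 over that of RRM1 in TPM was 3.40 in CD44 high cells and 2.77 in CD44 low cells. Thymidylate comes from synthesis and from salvage, and both enzymes had similar ratios. TYMS, which makes it from deoxyuridylate, had 4860 counts in CD44 high cells and 3911 in CD44 low cells (1.24-fold). TK1, which salvages thymidine, had 3157 counts in CD44 high cells and 2522 in CD44 low cells (1.25-fold). RRM1, TYMS and TK1 had intervals that overlapped one another and lay below that of RRM2.

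RRM2B, the alternative small subunit that p53 induces for repair and for resting cells, is no member and was called lower. It had 501 expected counts in CD44 high cells, against 770 in CD44 low cells, or 1.53-fold lower (1.37 to 1.72). In TPM, RRM2 stood at 42.7 times RRM2B in CD44 high cells and 16.6 times in CD44 low cells. CDKN1A, the p53-induced inhibitor p21 that blocks S phase entry, was lower too, at 1037 counts in CD44 high cells, against 1609 in CD44 low cells, or 1.55-fold lower (1.43 to 1.68).

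**Figure D2:**
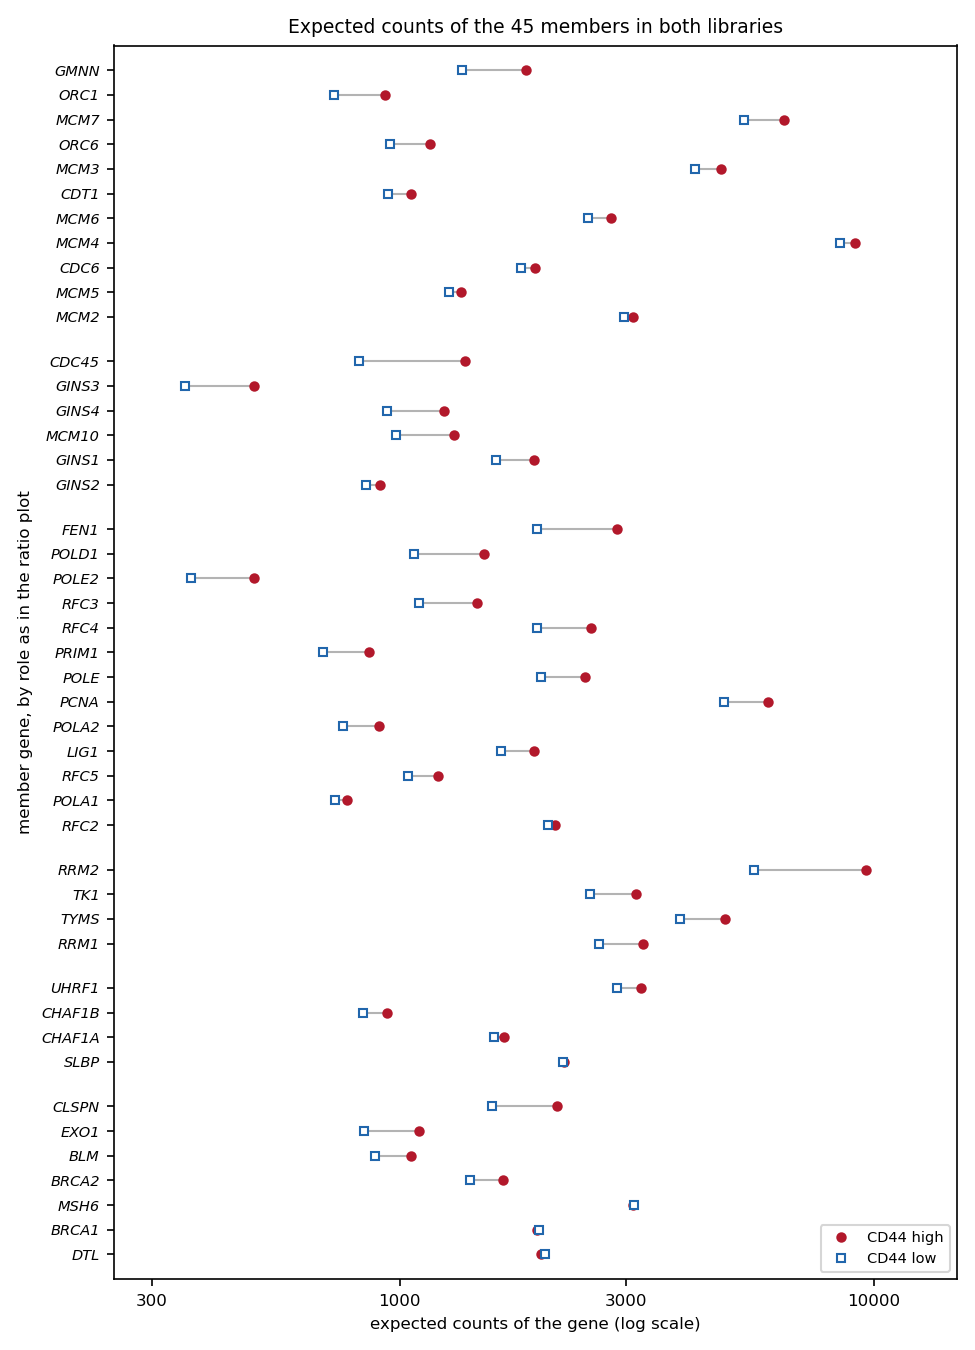
Expected counts (log axis) of each member are plotted in the CD44 high library (filled circles) and the CD44 low library (open squares), grouped by role in the order of the ratio plot. The distance between the 2 points is widest for RRM2 and CDC45, and the points coincide for SLBP, with 2220 counts in CD44 high cells and 2215 in CD44 low cells.

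None of the 4 genes that copy chromatin was called, against 20.2% of all measured genes higher and 21.7% lower. Their median was 0.12 on the log2 scale. UHRF1, which finds half-methylated DNA behind the fork and brings in the maintenance methyltransferase, had 3235 expected counts in CD44 high cells and 2868 in CD44 low cells (1.13-fold, 1.07 to 1.19). It was the only member with fractional counts in a library, so part of its level rests on reads shared with other genes. CHAF1B and CHAF1A, of the assembly factor that sets histones on new DNA, had 1.12-fold (1.02 to 1.23) and 1.05-fold (0.982 to 1.13) ratios. CHAF1B had 938 counts in CD44 high cells and 837 in CD44 low cells. CHAF1A had 1660 counts in CD44 high cells and 1579 in CD44 low cells. SLBP binds the stem-loop of replication histone mRNAs, and its interval of 0.946 to 1.06 bounds any difference in scaled counts between these libraries to under 1.1-fold either way.

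Checkpoint and repair genes split into members with higher and members with near-equal counts. Of the 7, 2 were called higher (28.6%, against 20.2% of all measured genes). CLSPN (chromosome 1, 35720218 to 35769967, minus strand) encodes claspin, the adaptor through which ATR activates CHK1 at stalled forks. It had 2148 expected counts in CD44 high cells, against 1566 in CD44 low cells (1.37-fold, 1.29 to 1.47). EXO1, the exonuclease of mismatch repair and end resection, had 1099 counts in CD44 high cells, against 839 in CD44 low cells (1.31-fold, 1.198 to 1.44). BLM, a helicase that dissolves recombination intermediates, had 1058 counts in CD44 high cells and 887 in CD44 low cells (1.19-fold). BRCA2, which acts in homologous recombination, had 1655 counts in CD44 high cells and 1406 in CD44 low cells (1.18-fold). BLM and BRCA2 lay near the threshold. With other settings 4 of the 7 were called: TMM factors, total counts, thinning of the deeper library and removal of a length trend. The shares of all measured genes called under these settings are not given here.

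The remaining 3 repair genes were the only members with a ratio below 1, and under TMM factors, total counts, thinning, the length trend and TPM they too were above it. MSH6, which recognises mismatched bases, had 3100 expected counts in CD44 high cells and 3129 in CD44 low cells (0.943 to 1.04). BRCA1, which acts upstream of BRCA2 in recombination, had 1946 counts in CD44 high cells and 1965 in CD44 low cells (0.931 to 1.06). DTL, the adaptor that marks CDT1 for destruction on loaded PCNA, had 1990 counts in CD44 high cells and 2025 in CD44 low cells (0.924 to 1.05). All 3 intervals spanned equality and were narrow enough to leave out a 1.1-fold difference in scaled counts in either direction. They did not overlap those of CLSPN or EXO1.

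Levels were compared between genes in TPM. PCNA was the most abundant member in both fractions, at 345 TPM in CD44 high cells and 251 TPM in CD44 low cells, and POLA1 the least, at 11.9 TPM in CD44 high cells and 8.87 TPM in CD44 low cells. The median member stood at 48.7 TPM in CD44 high cells and 34.0 TPM in CD44 low cells, and 10 members in CD44 high cells and 8 in CD44 low cells exceeded 100 TPM. Within the MCM helicase, subunits differed far more from each other than the fractions did. MCM4 stood at 273 TPM in CD44 high cells and 245 TPM in CD44 low cells, and MCM5 at 37.7 TPM in CD44 high cells and 33.8 TPM in CD44 low cells. MCM4 was thus 7.23 times MCM5 in CD44 high cells and 7.26 times in CD44 low cells. The order of all 6 MCM subunits was the same in both fractions. By TPM the replication factor C subunits spanned 3.89-fold in CD44 high cells and 3.99-fold in CD44 low cells, with RFC4 the highest. By scaled counts, which do not correct for length, the span was 2.13-fold in CD44 high cells and 2.90-fold in CD44 low cells. These spans include RFC1, which is no member and had the most scaled counts of the complex. RFC1 had a log2 ratio of -0.24, at 48.8 TPM in CD44 high cells and 51.0 TPM in CD44 low cells. Ribonucleotide reductase was the complex whose span differed most, through RRM2 and RRM2B. CDC45 was present at 0.986 of the TPM of MCM2 in CD44 high cells and 0.626 in CD44 low cells.

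**Figure D3:**
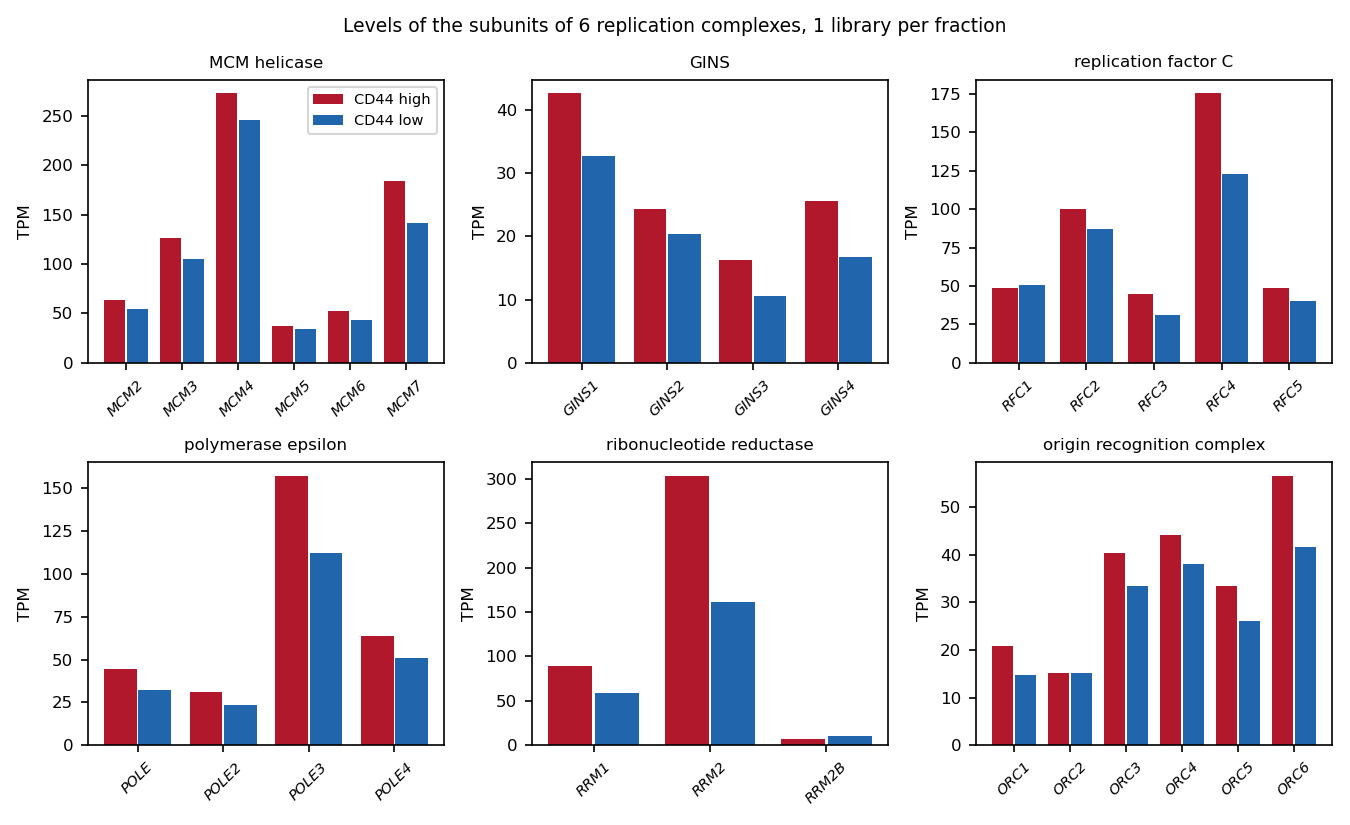
Levels in TPM are shown as bars for the subunits of 6 complexes, CD44 high left of CD44 low in each pair, with 1 library per bar. The step from subunit to subunit is alike in both fractions for the MCM helicase, from 273 TPM for MCM4 in CD44 high cells to 37.7 TPM for MCM5, whereas in ribonucleotide reductase RRM2 differs (303 TPM in CD44 high cells and 161 TPM in CD44 low cells).

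By TPM the ratios were larger than by scaled counts for 42 of the 45 members. On the log2(TPM + 1) scale the median of all measured genes was itself raised, to 0.17. Of the genes with at least 1 TPM, 37.7% were called higher and 17.7% lower at 1.2-fold. The median of the members on that scale was 0.43. By TPM alone, 9 members reached 1.5-fold, against 2 by scaled counts. The share of all genes that reached 1.5-fold by TPM is not given here, so the 9 have no background beside them. LIG1 was at 73.8 TPM in CD44 high cells and 39.3 TPM in CD44 low cells, or 1.88-fold, although its scaled counts differed 1.18-fold. BRCA2 was at 17.9 TPM in CD44 high cells and 9.33 TPM in CD44 low cells, or 1.92-fold, although its scaled counts differed 1.18-fold. In both genes the transcripts to which RSEM assigned reads differed between the libraries.

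The 45 members have 409 transcripts in the table, and 383 of these were found by identifier in GENCODE release 44. The transcript with the largest share of TPM was the same in both fractions for 43 members, the exceptions being BLM and POLA2. A transcript share that differed by at least 20 percentage points of TPM was seen in POLE2 and BRCA2. POLE2 transcript ENST00000216367, a protein coding form of 19 exons, had 179 expected counts in CD44 high cells and 0 in CD44 low cells, which is 24.0% of the TPM of the gene in CD44 high cells and 0% in CD44 low cells. Transcript ENST00000554396 of 17 exons led in both fractions, with 201 counts in CD44 high cells and 262 in CD44 low cells. In BRCA2 the full-length transcript ENST00000380152 of 27 exons took 50.5% of TPM in CD44 high cells and 75.4% in CD44 low cells. Its share of expected counts was 97.3% in CD44 high cells and 99.1% in CD44 low cells, so the TPM shift rests on few reads assigned to short transcripts. Judged by shares of expected counts instead, the members with a shift of that size were BLM, MSH6 and POLE2. MSH6 transcript ENST00000445503 had 0.02 counts in CD44 high cells and 719 in CD44 low cells, and transcript ENST00000614496 had 674 counts in CD44 high cells and 5.63 in CD44 low cells, while the counts of the whole gene were near equal. BLM transcript ENST00000559724 took 15.3% of the counts of the gene in CD44 high cells and 41.1% in CD44 low cells. In LIG1, transcript ENST00000596549 had 50.8 counts in CD44 high cells and 0 in CD44 low cells. RRM2 kept its leading transcript ENST00000304567 at 59.4% of TPM in CD44 high cells and 61.6% in CD44 low cells. Assignments of reads among transcripts that share most exons carry an error that was not analysed here, so these shifts have no interval.

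The promoter windows were searched for 3 motifs on both strands. The E2F motif was any of its 4 words, TTTCGCGC, TTTGGCGC, TTTCCCGC or TTTGCCGC, the CHR was TTTGAA or TTCGAA, and the NF-Y box was CCAAT. Matches to one motif may overlap matches to another. RefSeq windows were found for 42 of the 45 members, and MCM4, MCM5 and GINS4 were without one. Where a gene had several windows, that nearest to the 5′ end of its transcript with the most counts was used. An E2F word stood in 19 of the 42 member windows (45.2%), against 491 of 9024 windows of measured genes (5.44%) and 3.31% of all 35116 windows. A CHR word stood in 2 member windows (4.76%), those of MCM6 and RRM1, against 10.8% for measured genes and 16.4% for all windows. CCAAT stood in 23 member windows (54.8%), against 37.4% for measured genes and 34.6% for all windows. In 11 members both an E2F word and CCAAT were present.

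The E2F words were spread unevenly over the roles. They stood in 6 of 9 licensing windows, 3 of 5 firing windows and 6 of 13 fork windows, and in 1 of 4 for nucleotide supply, 1 of 4 for chromatin copying and 2 of 7 for checkpoint and repair. The 19 members with an E2F word had a median ratio of 0.24 on the log2 scale with 8 called higher, and the 23 without one had a median of 0.31 with 14 called higher. For CCAAT, the 23 members with it had a median of 0.27 with 12 called higher. The 19 without it had a median of 0.31 with 10 called higher. GINS3, with an E2F word and no CCAAT, was called at 1.39-fold. CHAF1A, with 4 CCAAT boxes, was not called at 1.05-fold. TYMS was the nucleotide supply gene that held an E2F word, and RRM2, RRM1 and TK1 held none in their windows. MCM6 held the most matches to the E2F words, 4, at a ratio of 1.12-fold.

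**Figure D4:**
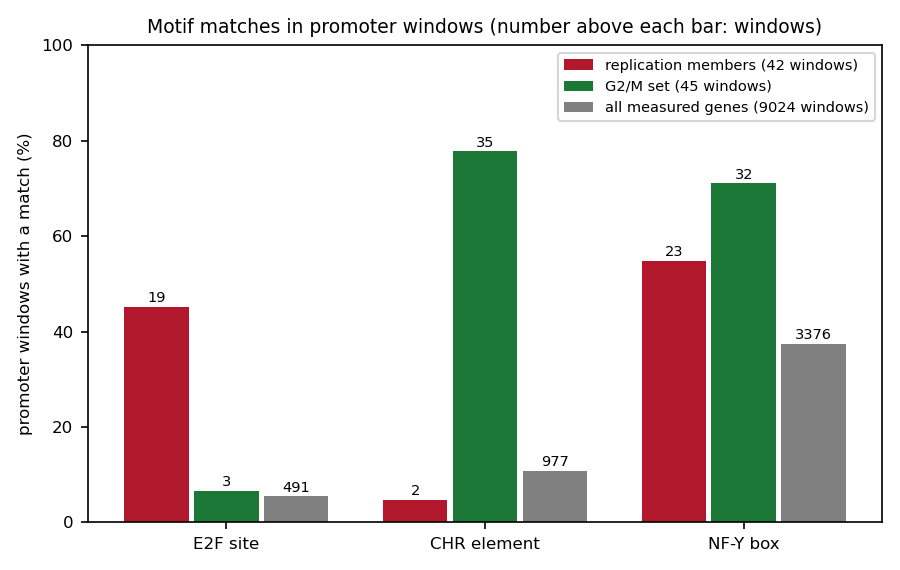
Bars give the share (%) of promoter windows with a match to each of 3 motifs for the replication members, the G2/M set and all measured genes, with the number of windows above each bar. E2F words stand in 45.2% of member windows and 6.67% of G2/M windows, and CHR words in 4.76% of member windows and 77.8% of G2/M windows.

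A further 113 genes act with the members, and 112 of them were measured. Of these, 36 (32.1%, against 20.2% of all measured genes) were called higher and 3 lower, with a median of 0.18 on the log2 scale, against 51.1% higher and a median of 0.27 for the members. Scaled to total counts 56 of them were called higher, but the median of all measured genes was then itself raised to 0.09 on the log2 scale. The share of all measured genes called under total counts is not given here. DBF4B, which activates the kinase CDC7, had 722 expected counts in CD44 high cells, against 450 in CD44 low cells (1.61-fold, 1.43 to 1.81). CDC7 itself, which phosphorylates MCM to fire origins, had 1355 counts in CD44 high cells and 953 in CD44 low cells (1.42-fold). TICRR, which helps CDC45 onto the helicase, had 1407 counts in CD44 high cells and 959 in CD44 low cells (1.47-fold). The related activator DBF4, part of whose reads are shared with other genes, differed 1.25-fold. With these, 5 of 16 further licensing and firing genes were called higher (31.25%, against 20.2% of all measured genes) and 0 lower.

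At the fork 7 of 22 further genes were called higher (31.8%, against 20.2% of all measured genes) and 0 lower. TOP2A, which untangles daughter DNA and peaks in G2, had 21493 expected counts in CD44 high cells, against 14072 in CD44 low cells (1.53-fold, 1.497 to 1.56). RPA2, of the complex that coats single-stranded DNA, differed 1.34-fold, RNASEH2B, of the nuclease that removes ribonucleotides, 1.26-fold, and POLE4, a small subunit of polymerase epsilon, 1.24-fold. Nucleotide supply had 10 of 24 further genes called higher (41.7%) and RRM2B alone called lower (4.17%), against 20.2% and 21.7% of all measured genes. CTPS1, which makes CTP, had 3637 counts in CD44 high cells, against 2149 in CD44 low cells (1.69-fold, 1.61 to 1.79). CAD, which starts pyrimidine synthesis, had 2410 counts in CD44 high cells and 1469 in CD44 low cells (1.64-fold). DTYMK, which phosphorylates thymidylate after TYMS or TK1 has made it, had 400 counts in CD44 high cells and 252 in CD44 low cells (1.59-fold).

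Of 12 further chromatin copying genes 2 were called higher (16.7%, against 20.2% of all measured genes), ASF1B, a histone chaperone (1.303-fold), and DNMT1, the maintenance methyltransferase that UHRF1 brings in (1.23-fold). Checkpoint and repair had 12 of 38 called higher (31.6%) and 2 lower (5.26%), against 20.2% and 21.7% of all measured genes. HUS1, of the ring-shaped damage sensor 9-1-1, had 471 expected counts in CD44 high cells, against 280 in CD44 low cells (1.68-fold, 1.45 to 1.96). RAD9A, of the same ring, was among those called lower, with 325 counts in CD44 high cells, against 433 in CD44 low cells (1.33-fold lower, 1.15 to 1.54). WEE1, the kinase that holds back CDK1, was the other, with 1523 counts in CD44 high cells, against 2025 in CD44 low cells (1.33-fold lower, 1.24 to 1.42). CDC25A, the phosphatase that opposes WEE1, was higher, at 968 counts in CD44 high cells and 653 in CD44 low cells (1.48-fold). ATRIP, the partner of ATR, differed 1.68-fold on reads shared with other genes, and XRCC3, a recombination gene, 1.43-fold.

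Of 18 regulators of S phase entry, 9 were called higher (50%) and 2 lower (11.1%), against 20.2% and 21.7% of all measured genes. E2F8, a late-acting E2F that represses E2F targets, had the largest ratio, with 697 expected counts in CD44 high cells, against 336 in CD44 low cells (2.08-fold, 1.82 to 2.37). CDKN2C, an inhibitor of CDK4 and CDK6, had 638 counts in CD44 high cells, against 319 in CD44 low cells (2.001-fold, 1.75 to 2.297). MYC was lower, with 2296 counts in CD44 high cells, against 3689 in CD44 low cells (1.605-fold lower, 1.52 to 1.69). CDK inhibitors thus stood on both sides, CDKN2C higher and CDKN1A lower.

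To place the members in the cell cycle, they were set beside scoring sets for G1/S and G2/M that are in wide use for single cells. The G1/S set of 43 genes shares 23 with the members, which is 51.1% of the members and 53.5% of the set, and the 20 that are not members had 3 called higher (15%, against 20.2% of all measured genes), 0 lower and a median of 0.13 on the log2 scale. The G2/M set of 54 genes had 47 called higher (87.0%, against 20.2% of all measured genes) and 1 lower, CBX5. The median of that set was 0.53. UBE2C, which drives destruction of mitotic cyclins, had 3191 expected counts in CD44 high cells, against 1382 in CD44 low cells (2.31-fold, 2.17 to 2.46). GTSE1, HJURP and PSRC1, which act in G2 and mitosis, differed 2.202-fold, 1.96-fold and 1.96-fold. All 3 exceeded RRM2, the highest member. The median replication gene stood at 1.203-fold and the median G2/M gene at 1.45-fold. The ratios of both lists come from the same 2 libraries, 1 per fraction, so the difference between the lists is a description without a test.

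**Figure D5:**
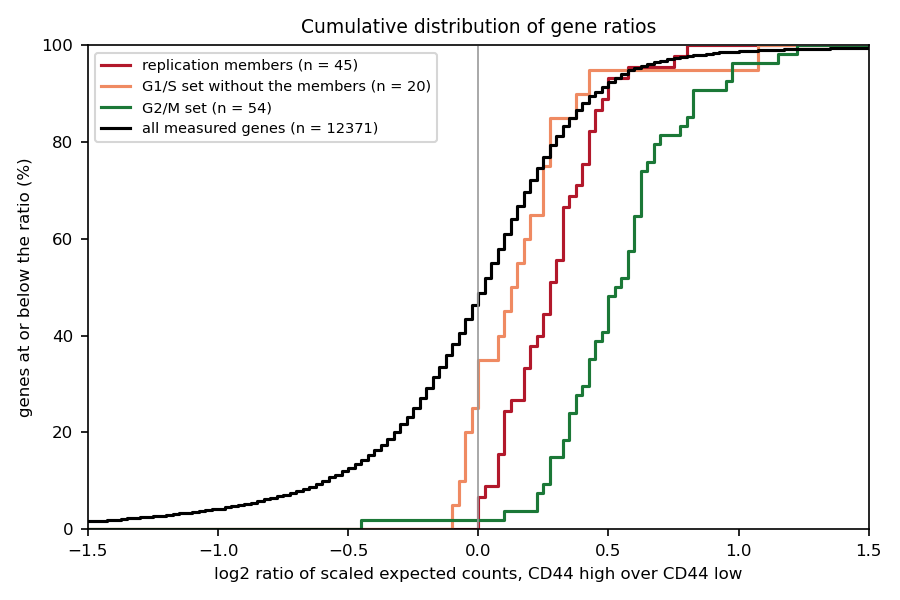
Curves give the percentage of genes at or below each log2 ratio, CD44 high over CD44 low, for the 45 members, the 20 G1/S genes that are not members, the 54 G2/M genes and all 12371 measured genes. The curve of the members lies to the right of that of all measured genes over most of its range, and the G2/M curve further right, with medians of 0.27 for the members, 0.01 for all measured genes and 0.53 for the G2/M genes.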

How the data were processed

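Bulk RNA sequencing compared 1 CD44 high and 1 CD44 low library of sorted KYSE30-Luc-GFP cells, grouped by their labels. The authors mapped read pairs to GRCh38 with STAR, assigned them with RSEM and deposited its expected counts after size factor scaling. TPM values from the same assignments were deposited beside them. Adapters carried molecular identifiers, but whether duplicates were removed with them, the GENCODE release and the strand setting are not given in the sources used here. Deposited fold changes and error rates of the authors' own comparison were not used.

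Unscaled expected counts were obtained by dividing each column by its value of 1 count. Median-of-ratios size factors and a prior count of 0.5 gave the ratios, and exact conditional binomial (Clopper-Pearson) intervals at 95% on rounded counts gave their counting error. No test was run, since each group has 1 library. A count of 0 allows up to 3 counts. All 45 members are named, and from each other list up to 4 called genes with the largest ratio, besides RRM2B, CDKN1A and CD44. WEE1, RAD9A, CBX5, EPCAM, KRT5 and the other cell type markers at 0 were named after their values were seen. Members and lists were chosen with earlier results of these data known. Of 250 listed genes, 4 were matched by Ensembl ID and the others by symbol. Alternatives were other scalings (TMM from edgeR 4.0.16), count minimums, folds and priors, thinning, a LOWESS length trend and genes with whole counts (within 0.05), the last chosen after seeing the data. Ratio and call code was tested on simulated data. Python 3.11.15, numpy 2.4.6, scipy 1.17.1 and statsmodels 0.14.6 were used.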

Additional observations from a re-analysis of the deposited data

How the results depend on the processing

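No member was called lower under any of the alternatives run, and no called result changed direction. Ratios near 1 did: MSH6, BRCA1 and DTL (-0.01, -0.01 and -0.02 on the log2 scale) stood at 0.02, 0.02 and 0.01 under TMM factors, and SLBP (below 0.01) at -0.02 without mitochondrially encoded genes. Called higher were 20 of 45 members when scaled to the total without mitochondrially encoded genes, against 23. After removal of a LOWESS trend on length 22 were called higher, under TMM factors 27 and under total counts 28. For these settings and for thinning, the shares of all measured genes called are not given here. Counts called under them, for members and other lists, thus have no background beside them. On the log2(TPM + 1) scale 33 members were higher, against 37.7% of all genes with at least 1 TPM. At 1.1-fold 33 were higher, against 29.4% of all measured genes. At 1.5-fold the count was 2, against 4.93% of all measured genes. Scalings also moved the median of all measured genes, which was 0.01 on the log2 scale. It was -0.02 without mitochondrially encoded genes, 0.02 after the length trend, 0.04 under TMM factors and 0.09 under total counts. Checkpoint and repair genes called higher numbered 4 under TMM factors, total counts, thinning and the length trend, against 2. Licensing genes called numbered 2 without mitochondrially encoded genes, against 4. Under total counts the nucleotide supply median was 0.40, the G2/M median 0.61 and 56 further genes were higher, against 36. With a minimum of 1000 counts 1 further gene was lower, against 3. The length trend left 0 G2/M genes lower, against 1. At 10 percentage points 11 members had a transcript shift, against 2.

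On the log2(TPM + 1) scale the median of all measured genes was 0.17. The medians were 0.43 for all members, 0.28 for licensing (7 called higher), 0.51 for firing and 0.46 for the fork. They were 0.60 for nucleotide supply, 0.23 for chromatin copying (2 higher) and 0.40 for checkpoint and repair (5 higher). For the further genes the median was 0.32 (69 higher), for the G1/S set 0.36 (27 higher) and for the G2/M set 0.70 (0 lower). The cause was not tested.

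No paired analysis was possible because the groups share only replicate number 1. With 1 library per fraction no replicate was left out, culture and sort cannot be told apart from fraction, and the intervals cover counting error only. The lowest count of a member was 353. Transcript shares rest on fewer reads than gene counts.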
